A study of Mus musculus with 6 samples.

Results

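MHC class II molecules carry peptides from engulfed material to the cell surface, where CD4 T cells read them. The genes described here are 10 rows of the deposited count table, of 23282 in all. H2-Aa, H2-Ab1, H2-Eb1 and H2-Eb2 encode the chains of the classical molecules, Cd74 the invariant chain, H2-DMa, H2-DMb1, H2-DMb2 and H2-Oa the chains that govern peptide exchange, and Ciita the transactivator. They share a role, and the list was chosen by the counts of these same 6 libraries in Sdha-KO against wildtype, so their genotype differences are given as a description that supports nothing further. All 10 have a row, 8 passed the filter on low counts, and H2-Eb2 and H2-DMb2 did not.

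The libraries came from alveolar macrophages, the resident phagocytes of the air spaces, sorted from mouse lung on CD45, CD11c, SiglecF and F4/80 and against CD11b. The compared groups were 3 wildtype and 3 Sdha-KO libraries, the latter from mice with floxed Sdha and LysM-Cre, a Cre recombinase driven from the Lyz2 locus and so active in myeloid cells in general. The product of Sdha is the catalytic flavoprotein of succinate dehydrogenase. Each of 3 labelled batches held 1 library of each genotype. Strain, age, sex, pooling of animals, and any floxed or Cre allele in the wildtype mice are not stated in the labels, and no agent is named. P-values therefore measure the spread between these libraries, part of which may be technical.

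In an antigen-presenting cell the alpha and beta chains pair around the invariant chain, which fills the groove and steers the complex to endosomes. Cathepsins trim the invariant chain, the H2-DM heterodimer swaps its remnant for a peptide, and the H2-O heterodimer restrains H2-DM. Transcription of these genes rests on a conserved promoter module, in which the RFX and NF-Y complexes occupy the X and Y boxes and recruit CIITA. Alveolar macrophages at rest are known for low surface class II compared with dendritic cells.

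The shared promoter letters are shown first because they stand in promoters of both chain and exchange genes. The promoter table (RefSeq, GRCm38.p6, 250 bases before to 50 bases after each start, both strands searched) held 7 of the 10 genes. H2-Ab1, Cd74 and Ciita had no entry. On the gene's own strand, 6 of the 7 had the letters AAC, from the X side of the module, followed after 26 or 27 bases by GATTGG, the core of the Y box. In the windows below, capitals mark AAC and GATTGG.

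H2-Aa: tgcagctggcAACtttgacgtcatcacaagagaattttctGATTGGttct
H2-Eb1: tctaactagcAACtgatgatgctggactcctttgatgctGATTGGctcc
H2-Eb2: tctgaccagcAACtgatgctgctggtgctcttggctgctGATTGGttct
H2-DMb2: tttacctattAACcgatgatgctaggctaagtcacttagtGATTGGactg
H2-Oa: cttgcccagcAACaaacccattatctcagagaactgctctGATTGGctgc

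These windows lie at chr17:34287863-34287912 (minus strand) for H2-Aa, and on the plus strand at chr17:34305768-34305816 for H2-Eb1, chr17:34325535-34325583 for H2-Eb2, chr17:34145118-34145167 for H2-DMb2 and chr17:34092295-34092344 for H2-Oa. H2-DMb1 had the same letters with 27 bases between them, and GATTGG began 62 bases before its RefSeq start. The GENCODE model of H2-DMb1 starts further upstream, so these letters lie inside its exon 1. The H2-DMb2 window lies within the GENCODE span of that gene but in none of its exons. The H2-Oa window runs past the GENCODE start of H2-Oa (34092340). Its last bases, with the final letter of GATTGG, lie inside the H2-Oa gene. GATTGG began between 101 bases (H2-Eb2) and 44 bases (H2-Oa) before the RefSeq start over the 6 genes. The pair at this spacing stood in 72 of 32851 promoter entries on the gene strand (0.219%) and in 0.505% on either strand, against 8.71% with GATTGG alone on the gene strand. The spacing was read from these promoters themselves, so the share describes and does not test. Neither of the 2 entries of H2-DMa held the pair, although 1 of them held GATTGG on the gene strand. This says only that the spaced pair is not in those windows. The entry of H2-Ob, the partner chain of H2-Oa, also held GATTGG without the pair.

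**Figure D1:**
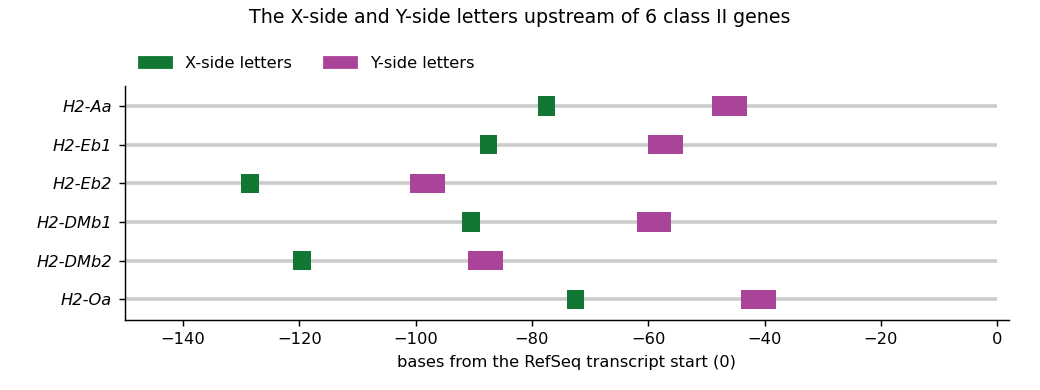
Positions of the X-side letters (AAC, green) and Y-side letters (GATTGG, purple) in the 6 promoters, in bases before the RefSeq transcript start (0 on the x axis). The distance between the marks is 26 or 27 bases in every row, while their distance from the start ranges from 44 bases in H2-Oa to 101 bases in H2-Eb2 for the Y-side letters.

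Several facts of the libraries bear on every value that follows. Total counts ran from 5400160 to 8472907, and levels are CPM, the counts divided by the library total, scaled with TMM factors. The kit reads transcript 3' ends, so levels are not divided by length, and they are compared between libraries only. Both batch 1 libraries lacked many transcripts: among 3447 genes that reached 100 counts in all of the other 4 libraries, 136 had no count in wildtype batch 1 and 612 none in Sdha-KO batch 1. Sdha itself was at 56.0, 65.5 and 72.2 CPM in wildtype batches 1 to 3 and at 26.1, 21.0 and 22.8 CPM in Sdha-KO, a limited check because 3' reads may lie outside the deleted part. The sexes were mixed and moved with genotype in different ways by batch. In batch 1 the wildtype library had 222 counts of the Y-linked Ddx3y and 0 of Xist, and the Sdha-KO library 0 and 2683. In batches 2 and 3 the wildtype libraries had 0 and 143 counts of Ddx3y and 4608 and 6055 of Xist, against 354 and 432 and then 498 and 822 in Sdha-KO.

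Mean levels of H2-Aa, H2-Ab1, H2-Eb1 and Cd74 were 4.69 to 5.43 times as high in Sdha-KO as in wildtype libraries, but none of these 4 differences passed the adjusted threshold, and the H2-Ab1 groups overlapped. The mean of H2-DMb1 was 1.84 times as high and that of H2-DMa 1.04 times. H2-Eb2, H2-DMb2, H2-Oa and Ciita had too few counts to show a difference. H2-Aa, the alpha chain of the A molecule (chromosome 17, 34282744 to 34287823, minus strand, mm10), had 885, 817 and 2282 counts in wildtype batches 1 to 3 and 8268, 5072 and 10184 in Sdha-KO. That was 108, 181 and 291 CPM in wildtype, against 690, 943 and 1518 CPM in Sdha-KO, or 193 ± 91.7 and 1050 ± 424 CPM (SD, n = 3 each). The lowest Sdha-KO library was more than 2-fold above the highest wildtype library, so the groups were well apart. The fitted log2 fold change was 2.44 (SE 0.425), or 5.43-fold.

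H2-Ab1, the beta chain that pairs with H2-Aa (chromosome 17, 34257689 to 34269419), was at 80.5, 174 and 309 CPM in wildtype, against 266, 844 and 1597 CPM in Sdha-KO. Its groups overlapped, because the Sdha-KO library of batch 1 lay below the wildtype library of batch 3. The log2 fold change was 2.27 with an SE of 0.717, and 1.56 without the Sdha-KO library of batch 3. H2-Eb1, the beta chain of the E molecule (chromosome 17, 34305867 to 34316674), was at 125, 168 and 223 CPM in wildtype, against 346, 761 and 1551 CPM in Sdha-KO. All 3 Sdha-KO libraries of H2-Eb1 lay above all 3 of wildtype, with a log2 fold change of 2.36 (SE 0.494), which was 1.68 without the Sdha-KO library of batch 3. The partner alpha chain locus, H2-Ea-ps, annotated as a polymorphic pseudogene, had 0 counts in all 6 libraries, which allows 0.25 to 0.666 CPM by counting error. The E alpha chain is known to be missing in several laboratory strains.

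Cd74 (chromosome 18, 60803848 to 60812652) had 979, 928 and 3184 counts in wildtype and 6841, 5200 and 12713 in Sdha-KO libraries. These were 120, 206 and 405 CPM against 571, 967 and 1895 CPM, with no overlap and a log2 fold change of 2.23 (SE 0.542). Its exons overlap those of Mir5107 on the same strand. H2-Eb2, a beta chain gene of the same region with restricted expression (chromosome 17, 34325665 to 34341412), had 0, 0 and 8 counts in wildtype and 0, 2 and 66 in Sdha-KO. Only the batch 3 libraries held more than 3 counts of H2-Eb2, so no fold was taken over the groups.

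**Figure D2:**
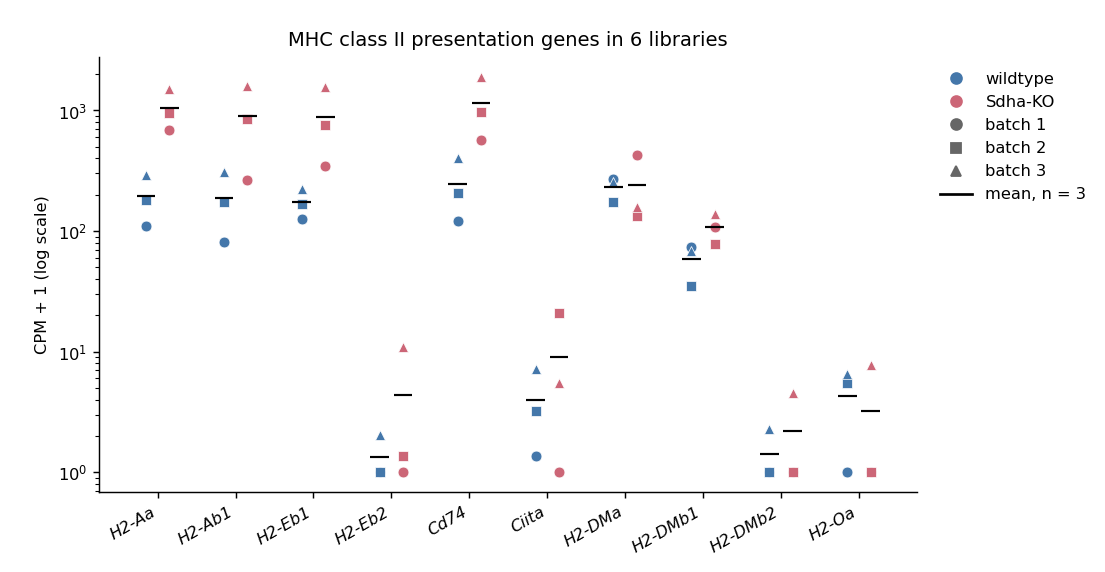
Level of each of the 10 genes (CPM + 1, log scale) in each library, with wildtype in blue, Sdha-KO in red, marker shape for batch and a black bar for the mean of 3 libraries. H2-Aa, H2-Eb1 and Cd74 show no overlap between genotypes, H2-Ab1 overlaps by 1 Sdha-KO library, and in all 4 the batch 1 library is the lowest and the batch 3 library the highest of its genotype.

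H2-DMb1, the beta chain of the exchange factor (chromosome 17, 34153072 to 34160230), was at 72.9, 33.95 and 67.1 CPM in wildtype, against 108, 76.8 and 137 CPM in Sdha-KO. The groups did not overlap, but the lowest Sdha-KO library (76.8 CPM) stood only just above the highest wildtype library (72.9 CPM). The log2 fold change was 0.88 with an SE of 0.545. H2-DMa, its alpha chain partner (chromosome 17, 34119541 to 34139101), was at 267, 174 and 252 CPM in wildtype, against 430, 132 and 157 CPM in Sdha-KO. Sdha-KO was higher in batch 1 and lower in batches 2 and 3, and the log2 fold change was 0.05 (SE 0.467). Without the Sdha-KO library of batch 1 it was -0.67. Exons of H2-DMa overlap those of Brd2 on the other strand, and whether counting used strand is not given in the sources, so its count is uncertain.

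H2-DMb2, a close copy of H2-DMb1 (chromosome 17, 34143307 to 34151555), had 10 counts in wildtype batch 3, 24 in Sdha-KO batch 3 and 0 elsewhere. Reads could be split between the near-identical copies, which makes both counts uncertain. H2-Oa (chromosome 17, 34092340 to 34095234), whose exons overlap those of BC051537 on the other strand, had 0, 20 and 43 counts in wildtype and 0, 0 and 45 in Sdha-KO. Its log2 fold change was -0.56 with an SE of 2.83, so no difference was detectable at this depth. Ciita (chromosome 16, 10480059 to 10528418), whose exons overlap those of Dexi on the other strand, had 3, 10 and 49 counts in wildtype and 0, 106 and 30 in Sdha-KO. Ciita was higher in Sdha-KO in batch 2 only, its log2 fold change was 1.45 with an SE of 2.49, and its sign turned without the Sdha-KO library of batch 2 (-0.37) and under the replicate block (-0.19).

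None of the 8 tested genes passed edgeR's quasi-likelihood test over 9963 genes at a Benjamini-Hochberg adjusted p under 0.05, where 0.0502% of all tested genes were called. At an unadjusted p under 0.05, 4 of the 8 (H2-Aa, H2-Ab1, H2-Eb1 and Cd74) were higher in Sdha-KO, against 1.36% of all tested genes. DESeq2 called 1 of them (0.181% of all genes it tested) and limma-voom 1 (0.793%), H2-Aa in both cases. Library totals in place of TMM factors called H2-Aa and H2-Eb1 (0.0903%), and a fit with no filter called H2-Aa, H2-Eb1 and Cd74 (0.312%). RLE factors (0.0502%) and a table without Lars2, Rn45s and Rn4.5s (0.0498%) called none of the members, and the replicate block and the stricter filter called 0 genes at all. With 1 library left out, 3 were called without wildtype replicate 3 (0.125%), 1 without wildtype replicate 2 (0.112%) and 1 without Sdha-KO replicate 2 (0.0645%). None were called without Sdha-KO replicate 1 (0.0272%), Sdha-KO replicate 3 (0.0189%) or wildtype replicate 1 (0%). All 3 Sdha-KO libraries lay above all 3 wildtype libraries in 4 of the 8 (H2-Aa, H2-Eb1, Cd74 and H2-DMb1), against 5.04% of all tested genes. The median log2 fold change of the 8 was 1.84 and that of all tested genes -0.13. These counts cover genes listed with this contrast known, and nothing is read from them. Without both batch 1 libraries H2-Aa and H2-Eb1 were called (0.251% of all tested genes). With the replicate block as well, H2-Aa, H2-Ab1, H2-Eb1 and Cd74 were called (3.01%), in a fit with 1 library of each genotype in each of the remaining batches. Sex and genotype cannot be told apart in those 4 libraries.

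Within batches, at the TMM scaling, the Cd74 difference was nearly constant. Sdha-KO was 4.76-fold above wildtype in batch 1, 4.70-fold in batch 2 and 4.67-fold in batch 3. The largest of these folds was 1.02 times the smallest, although the Cd74 level itself more than tripled from batch 1 to batch 3 in each genotype. The within-batch folds and their spread depend on the TMM factors. These were 0.993, 0.778 and 0.982 in wildtype batches 1 to 3, and 1.42, 1.00 and 0.928 in Sdha-KO. At library totals in place of these factors, the Cd74 folds lie further apart and fall from batch 1 to batch 3. Of 3801 tested genes with more than 3 counts in every library, 2 had a smaller spread of the within-batch fold than Cd74. The same count was 131 genes (3.45%) for H2-Aa, 577 (15.2%) for H2-DMb1, 628 (16.5%) for H2-Ab1, 1624 (42.7%) for H2-Eb1 and 1672 (44.0%) for H2-DMa. The members were listed with their genotype differences known within batches too. These ranks, taken at the TMM scaling, therefore describe and do not test. H2-Aa was 6.36-fold, 5.20-fold and 5.22-fold higher in batches 1 to 3, a largest fold 1.22 times the smallest. H2-Ab1 was 3.30-fold, 4.86-fold and 5.18-fold higher, and H2-Eb1 was 2.77-fold, 4.53-fold and 6.95-fold higher. For both beta chains the fold was lowest in batch 1, the batch in which the sexes were crossed the other way and the most transcripts were missing. All 4 genes were at least 2-fold higher in Sdha-KO in each batch, as were 76 tested genes in all (0.763% of 9963). Folds were taken only for the 3801 genes with more than 3 counts in every library, so all 76 are among those 3801. The share over all tested genes is therefore too low as a background.

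**Figure D3:**
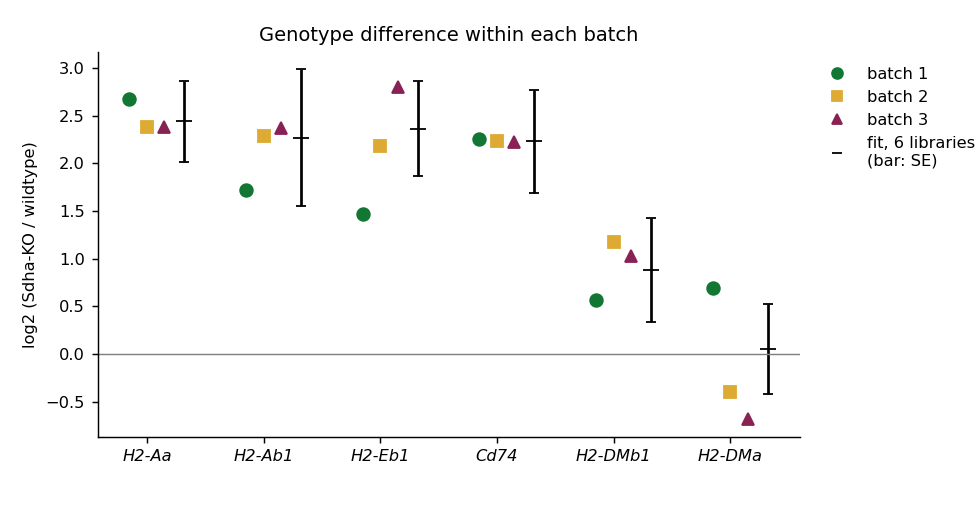
Log2 ratio of Sdha-KO to wildtype CPM within each batch (coloured marks) for the 6 genes with more than 3 counts in every library, beside the fitted log2 fold change over 6 libraries (black, bar = SE). The Cd74 marks coincide, those of H2-Aa, H2-Ab1 and H2-Eb1 all lie above 1, and H2-DMa is above 0 in batch 1 and below it in batches 2 and 3.

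Of the peptide-exchange genes, H2-DMb1 had the same direction in each batch, with smaller folds, and H2-DMa changed direction. H2-DMb1 was 1.48-fold, 2.26-fold and 2.03-fold higher in Sdha-KO in batches 1 to 3. H2-DMa was 1.61-fold higher in batch 1 and at 0.759 and 0.623 of the wildtype level in batches 2 and 3. As a result the library held 0.407, 1.04 and 1.15 H2-Aa counts per H2-DMa count in wildtype batches 1 to 3, and 1.60, 7.14 and 9.67 in Sdha-KO. The counts of H2-Aa per H2-DMb1 count were 1.49, 5.34 and 4.33 in wildtype and 6.40, 12.3 and 11.1 in Sdha-KO. Both ratios were higher in every Sdha-KO library than in any wildtype library, and neither depends on how the libraries were scaled.

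The following ratios among the 4 abundant genes overlapped between genotypes. Cd74 counts per count of the 3 chains together (H2-Aa, H2-Ab1 and H2-Eb1) were 0.382, 0.394 and 0.493 in wildtype and 0.439, 0.380 and 0.406 in Sdha-KO, with overlapping groups. Cd74 counts per H2-Aa count were 1.11, 1.14 and 1.40 in wildtype and 0.827, 1.03 and 1.25 in Sdha-KO. H2-Ab1 counts per H2-Aa count were 0.742, 0.957 and 1.06 in wildtype and 0.385, 0.894 and 1.05 in Sdha-KO. Both of these ratios to H2-Aa were lower in Sdha-KO in each batch. The Sdha-KO library of batch 1 stood apart here, with fewer beta chain reads per alpha chain read than any other library. H2-Eb1 counts per H2-Aa count were 0.501 in that library and between 0.768 and 1.15 in the other 5.

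The class II region on chromosome 17 also holds genes of the class I pathway, which carries peptides from inside the cell. From H2-Oa to H2-Eb2 (34092340 to 34341412, 249 kb) there were 15 rows, 11 of them tested, and 6 of those 11 were genes described above. The other 5 tested genes were Brd2, a chromatin reader, the peptide transporter genes Tap1 and Tap2, and the immunoproteasome subunit genes Psmb8 and Psmb9. Their log2 fold changes ran from -2.32 (Tap1) to 0.70 (Brd2) with a median of -0.08. None of the 5 passed the test, and in none did all Sdha-KO libraries lie above all wildtype libraries. Tap1 was at 31.1, 33.5 and 37.2 CPM in wildtype, against 0.0834, 1.49 and 18.8 CPM in Sdha-KO. It was lower in every Sdha-KO library than in any wildtype library, as were 9.27% of all tested genes. The SE on its log2 fold change was 1.90. Exons of Tap1 and Psmb9 overlap on opposite strands, which makes both counts uncertain. The largest positive fitted differences of the region were those of H2-Ab1, H2-Aa and H2-Eb1, which are neighbours in the tested part of the region.

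**Figure D4:**
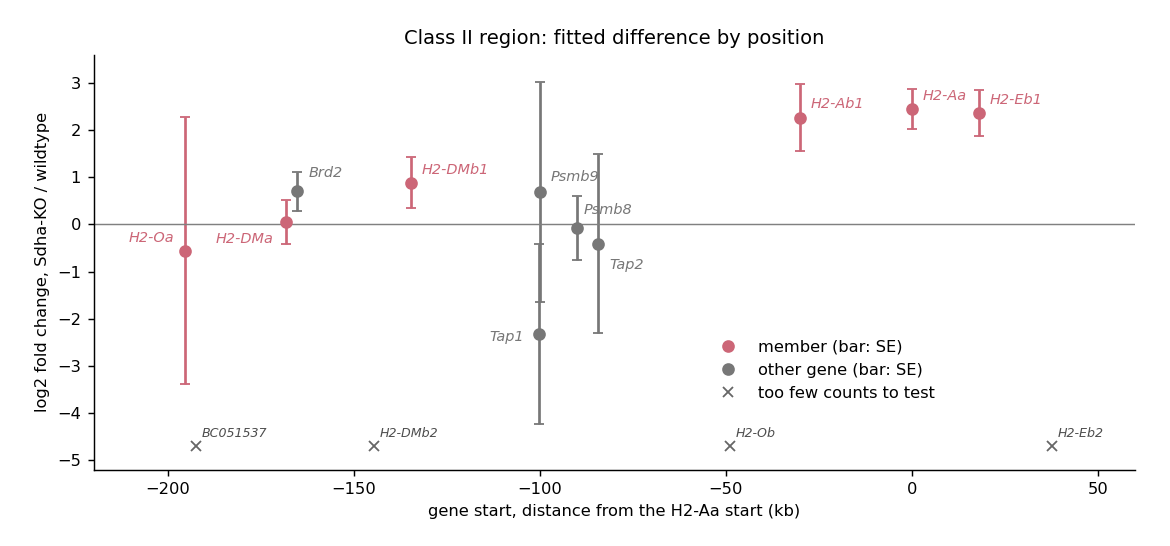
Fitted log2 fold change (bar = SE) of the 11 tested genes of the class II region against the distance of their start from that of H2-Aa in kb, with the genes described here in red, others in grey and crosses for rows with too few counts to test. H2-Ab1, H2-Aa and H2-Eb1 lie above 2 at the right, while the peptide-exchange and class I pathway genes to the left lie below 1.

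The class I pathway list (19 genes, 16 tested) had 0 genes past the threshold (edgeR; 0.0502% of all tested genes were called), with 2 log2 fold changes above 0, 14 below and a median of -0.41. Its most abundant members were B2m, the light chain of class I molecules, and the chaperone gene Calr. B2m was at 2323, 1952 and 3192 CPM in wildtype, against 1320, 1866 and 2906 CPM in Sdha-KO, with overlap and a log2 fold change of -0.29. Set against B2m inside each library, H2-Aa had 0.0467, 0.0929 and 0.0910 counts per B2m count in wildtype and 0.523, 0.506 and 0.522 in Sdha-KO. The 3 Sdha-KO ratios differed by less than the wildtype ratios did, and each was more than 5 times the highest wildtype ratio.

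Factors that occupy class II promoters or induce Ciita were tested in 15 of 16 cases, and 0 passed (9 log2 fold changes above 0, 6 below, median 0.17). Spi1, the myeloid factor PU.1, was at 627 ± 388 CPM in wildtype and 479 ± 241 in Sdha-KO, and the kinase gene Jak1 at 154 ± 45.8 and 183 ± 6.73 CPM (SD, n = 3 each). In the list of interferon gamma targets, 11 of 17 were tested and 0 passed. Their log2 fold changes were above 0 in 10, with a median of 1.10. Its most abundant members were Cd274, a ligand that restrains T cells, at 104 ± 24.4 and 154 ± 36.0 CPM, and Irf1 at 59.7 ± 1.48 and 105 ± 37.9 CPM (SD, n = 3 each). Cd274 overlapped between genotypes, and Irf1 did not, with Sdha-KO at 61.2 CPM or more and wildtype at 60.6 CPM or less. Such a gap, with Sdha-KO above, was seen in 5.04% of all tested genes.

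Endosomal antigen-processing genes were all tested (8 of 8) and 0 passed. Ctss, the cathepsin that trims the invariant chain, went the other way from Cd74. It was at 3048, 3761 and 3764 CPM in wildtype, against 1077, 1560 and 1455 CPM in Sdha-KO, with a log2 fold change of -1.37 (SE 0.255, edgeR adjusted p = 0.122). All 3 Sdha-KO libraries of Ctss lay below all 3 of wildtype, as in 9.27% of all tested genes. Ctsd was at 3149 ± 888 and 2533 ± 376 CPM (SD, n = 3 each) with overlap. Among trafficking and turnover genes 7 of 8 with a row were tested and 0 passed. The most abundant were Lamp1, at 456 ± 162 and 514 ± 70.4 CPM, and Cd83, a surface protein that protects class II from turnover, at 84.6 ± 38.1 and 179.5 ± 60.3 CPM (SD, n = 3 each), both with overlapping groups. Of 10 costimulatory genes 7 were tested and 0 passed, and the median log2 fold change was -0.42. After Cd274 its most abundant member was Lgals9, a galectin gene, at 50.9 ± 40.9 and 24.1 ± 8.37 CPM (SD, n = 3 each) with overlap.

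The labelled cell type was checked against alveolar macrophage markers, and cells of other types that carry class II were checked as well. In bulk RNA, fewer cells of a type and less RNA per cell cannot be told apart. The 15 alveolar macrophage markers summed to 8403 to 10121 CPM in wildtype and 7284 to 9166 CPM in Sdha-KO libraries. The most abundant marker alone made up a large part of every sum, so the sums say little about the others. Log2 fold changes of the 15 markers were below 0 in 10 (median -0.13), as in 5480 of all 9963 tested genes. In 4 (Ear1, Ear2, Krt79 and Siglecf) all 3 Sdha-KO libraries lay below all 3 of wildtype, as in 9.27% of all tested genes. In 1 other marker all 3 Sdha-KO libraries lay above all 3 of wildtype, as in 5.04% of all tested genes. Only Ear1 passed the test, at 633 ± 92.1 CPM in wildtype, against 132 ± 17.7 CPM in Sdha-KO (SD, n = 3 each; log2 fold change -2.26, edgeR adjusted p = 0.0261, and 0.374 with the replicate block). Lower calls made up 0.01% of all tested genes. Ear1 belongs to a family of similar ribonuclease genes and its exons overlap those of Ear-ps9, so its count is uncertain. Siglecf, used in the sort, was at 103, 138 and 132 CPM in wildtype, against 0, 39.6 and 45.3 CPM in Sdha-KO (log2 fold change -2.14, edgeR adjusted p = 0.999825). Without both batch 1 libraries and with the replicate block the Siglecf value was -1.66 (edgeR adjusted p = 0.0022). That fit called 3.01% of all tested genes. It also called 18 of the 129 tested genes of the lists other than the class II members, 11 higher and 7 lower. Siglecf was thus not the only listed gene called there. Adgre1 (F4/80), also used in the sort, was at 76.8, 91.2 and 70.5 CPM in wildtype, against 0, 56.7 and 81.98 CPM in Sdha-KO, with overlap. Ear2, Krt79, Siglecf and Adgre1 were chosen after their values were seen.

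In sum, markers of conventional dendritic cells, which carry much class II, moved with the same libraries, in batch 1 through Ccl17. The 15 markers summed to 46.7, 83.7 and 125 CPM in wildtype batches 1 to 3 and 130, 371 and 911 CPM in Sdha-KO. All Sdha-KO sums lay above all wildtype sums, and the order of the batches was that of H2-Aa. In Sdha-KO batch 1, however, Ccl17 made up 111 of the 130 CPM. Without Ccl17 that sum lies below the wildtype sum of batch 1. Of the 11 tested markers 0 passed, 9 had a log2 fold change above 0, and the median was 1.46. The most abundant was the chemokine gene Ccl17, at 0, 17.5 and 34.5 CPM in wildtype, against 111, 155 and 371 CPM in Sdha-KO, followed by Ccl22 and Cd24a, whose groups overlapped. Gene by gene, Sdha-KO was higher in 3 of the 15, lower in 3 and at 0 with wildtype in 9 in batch 1. The same counts were 10, 3 and 2 in batch 2, and all 15 were higher in batch 3. The next genes were chosen after their values were seen. In batch 2 Cd209a was at 37.4 CPM in Sdha-KO, against 0.444 in wildtype, and Ccr7 at 27.5 against 2.22 CPM. Their log2 fold changes over 6 libraries were 3.37 (SE 2.70) and 3.45 (SE 2.03). The 3 markers lower in batch 2 were Batf3, at 0 CPM in Sdha-KO against 9.76 in wildtype, Xcr1 (0.372 against 2.66) and Cd7 (0 against 2.00). Zbtb46 and Flt3 had 0 counts in all 4 libraries of batches 1 and 2, and 43 and 33 counts in Sdha-KO batch 3 against 0 and 4 in wildtype batch 3.

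Monocyte and interstitial macrophage markers (14 genes, 12 tested, 0 past the threshold) summed to 536, 382 and 622 CPM in wildtype, against 318, 899.9 and 966 CPM in Sdha-KO, with overlap. Log2 fold changes were above 0 in 11 of the 12, with a median of 1.83. The most abundant were Cd14 and Csf1r, which overlapped between genotypes, and the lectin gene Mgl2, which did not. Mgl2 was at 0, 28.0 and 17.4 CPM in wildtype, against 53.4, 126 and 188 CPM in Sdha-KO. All 3 Sdha-KO libraries lay above all 3 of wildtype in 5.04% of all tested genes. B cell markers (8 of 11 with a row, 6 tested, 0 past the threshold) summed to 169, 88.8 and 70.3 CPM in wildtype, against 3.59, 90.0 and 65.0 CPM in Sdha-KO. The most abundant B cell marker, Cd22, was at 161, 59.9 and 44.2 CPM in wildtype, against 3.59, 77.0 and 34.4 CPM in Sdha-KO, and Cd79b had 0 counts in both batch 1 libraries. The part of other cell types in the class II levels was not tested. Of the remaining lists, T and NK cell markers (most abundant Cd4, Nkg7 and Cd3d) reached at most 28.5 CPM in sum, neutrophil and eosinophil markers (S100a8, S100a9 and Retnlg) at most 124 CPM, and lung epithelium markers (Scgb1a1, Sftpc and Sftpa1) ran from 118 to 716 CPM, with 0 genes past the threshold in each.

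**Figure D5:**
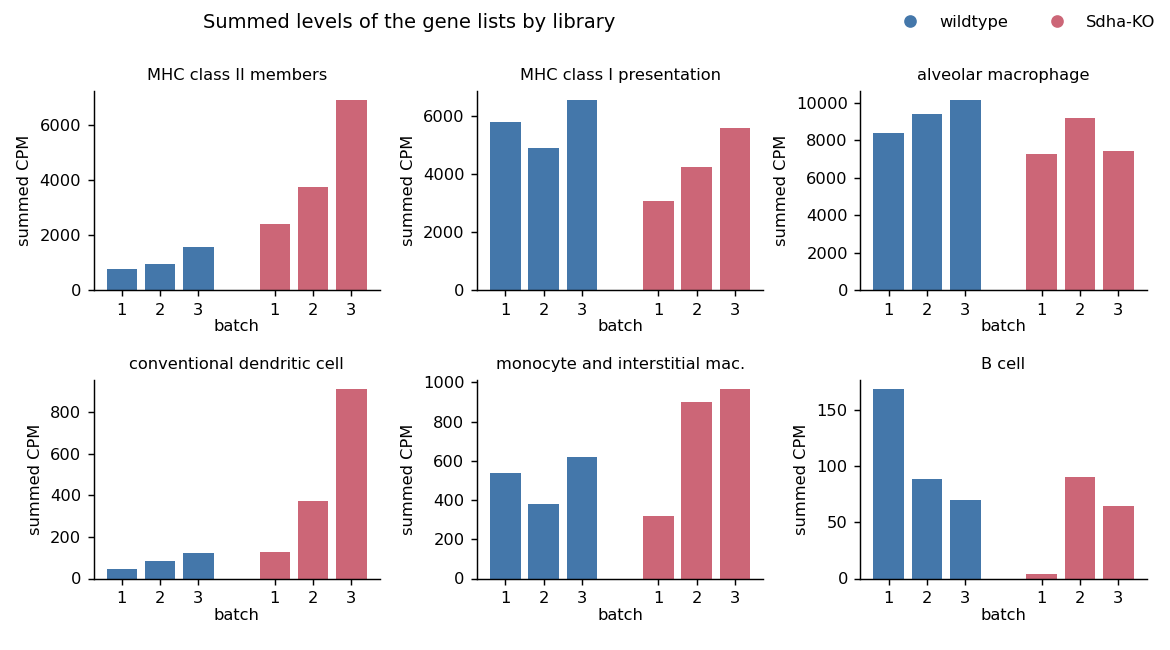
Summed CPM of 6 gene lists in each library (x axis: batch; wildtype blue, Sdha-KO red; each bar is 1 library, and each panel has its own scale from 0). The class II and conventional dendritic cell sums are higher in every Sdha-KO library than in any wildtype library. They are at 2410 to 6879 against 774 to 1561 CPM, and at 130 to 911 against 46.7 to 125 CPM. The dendritic cell sum of Sdha-KO batch 1 is mostly Ccl17. The class I and alveolar macrophage sums overlap. The alveolar macrophage sums are in large part the most abundant marker of that list.

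Genes outside the family with the most similar pattern were sought among 6558 tested rows with a mean of at least 10 CPM. The measure was the root mean square difference between a gene's centred log2(CPM + 1) values over the 6 libraries and the centred mean of H2-Aa, H2-Ab1 and H2-Eb1. The nearest were Ppp1r15a, a stress-induced phosphatase subunit (0.386), Nfkbia, the inhibitor of NF-kB (0.436), the prostaglandin receptor gene Ptger4 (0.509), the enolase copy Eno1b (0.510) and the metallothionein gene Mt2 (0.535). Cd74, which was not in the mean, was nearer than all of them at 0.151, while H2-DMb1 was at 1.02 and H2-DMa at 1.65. Cd74 and the genes of that mean were listed by their genotype differences in these libraries, so its nearness describes and does not test. Ppp1r15a was 5.40-fold, 6.06-fold and 6.40-fold higher in Sdha-KO in batches 1 to 3, and its exons overlap those of Tulp2 on the other strand. Those of Ptger4 and Mt2 also overlap annotated genes on the other strand. Among the 18 tested genes outside the family whose promoter held the spaced letters, 0 passed the test, 11 had a log2 fold change above 0, and the median was 0.30.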

How the data were processed

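Libraries were made with the QuantSeq 3' mRNA kit from TRIzol-extracted RNA, per the labels' protocols. The authors deposited 1 table of raw read counts per gene symbol. The submitters' processing notes name Bowtie2, bedtools and mm10, while versions, annotation, strand use and the handling of reads with several matches are not stated there. The labels mention no molecular identifiers, and limits therefore cover counting error only.

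Counts were fitted over the whole table with edgeR 4.0.16 (R 4.3.3; TMM factors, filterByExpr at a minimum count of 10, robust quasi-likelihood test). Genotype was the sole term, with a Benjamini-Hochberg threshold of 0.05. The SE is the log2 fold change divided by the root of its F statistic. A count of 0 allows 3 counts. The scripts were tested on simulated data. In the labels a replicate number is also the batch, which pairs the libraries. Deviations from group means correlated at 0.162, 0.111 and 0.140 for same-numbered libraries, and at -0.155 to 0.124 for others, the highest being wildtype 2 with Sdha-KO 3, above the same-numbered pair of batch 2. The block was an alternative, as were RLE factors, library totals, other filters, DESeq2 1.42.0, limma-voom (limma 3.58.1), libraries left out, and the rows Rn45s, Rn4.5s and Lars2 left out. Members, lists and alternatives were chosen with earlier results of these data known. Named genes were all members, Sdha, sex-linked genes, each list's called genes or else its most abundant (2 of a pathway list, 3 of a marker list), and the nearest in pattern. Others, such as the neighbours in the class II region and the sort markers, were chosen after their values were seen. A listed marker is not reported here. Locations are from GENCODE M21 (mm10). Promoter letters were chosen after reading the members' sequences.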

Additional observations from a re-analysis of the deposited data

How the results depend on the processing

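H2-Aa, H2-Ab1, H2-Eb1, Cd74 and H2-DMb1 had a positive log2 fold change in all 16 alternatives run, from 1.56 to 2.86 for the first 4 and 0.60 to 1.11 for H2-DMb1. The number of tested class II genes called was 2 with library totals alone, 3 with no filter, 1 with DESeq2, 1 with limma-voom, 2 without both batch 1 libraries, 4 with the replicate block as well, and 0 to 3 when 1 library was left out (highest without wildtype replicate 3). The replicate block alone called 0 of them. The sign turned for Ciita with the replicate block (-0.19), with limma-voom (-0.28) and when 1 library was left out (-0.37 to 2.63). It turned for H2-DMa with the replicate block (-0.13), when both batch 1 libraries were left out (-0.55, or -0.53 under the block) and when 1 library was left out (-0.67 to 0.35). It turned for H2-Oa when 1 library was left out (-7.66 to 0.0425; above 0 without the batch 1 or 2 Sdha-KO library or the batch 3 wildtype library). Over all genes 5 were called. That count was 0 with the replicate block (296 at an unadjusted p under 0.05), 9 with library totals alone, 48 with no filter, 0 with at least 10 counts in every library of a group, 18 with DESeq2, 79 with limma-voom, 27 without both batch 1 libraries, 324 with the block as well, and 0 to 13 with 1 library left out. Of the other listed genes 1 (Ear1) was called. That count was 0 with the block, with library totals alone or with the stricter filter, 4 with no filter, 5 with limma-voom, 4 without both batch 1 libraries, 18 with the block as well, and 0 to 3 with 1 library left out. Library totals alone moved the median log2 fold change of all genes by 0.19 (from -0.13 to 0.05), and H2-DMa from 0.05 to 0.46. The causes of these changes were not tested. Low depth limits H2-Eb2, H2-DMb2, H2-Oa and Ciita.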
